A study of Homo sapiens with 3 samples.

Results

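The genes that import, sort and fold mitochondrial proteins were examined for MYC occupancy in U2OS, an established human line derived from an osteosarcoma. The group was defined by name: all RefSeq protein-coding genes with a numbered TIMM or TOMM symbol, plus named genes of outer membrane assembly, the import motor, the disulfide relay, matrix folding, precursor processing and membrane insertion. It holds 44 of the 19974 protein-coding genes on chromosomes 1 to 22 and X. A gene was counted as having a peak when a MYC summit lay inside its annotated span or within 5000 bp of it, and genes without a peak remained in the group.

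The study mapped MYC by ChIP-Rx, in which chromatin of another species is added before immunoprecipitation as a reference. Immunoprecipitation for MYC gave 2 libraries, described as biological replicates, beside 1 input, all from parental cells with no treatment named in the labels. The cells were crosslinked for 10 min in 1% formaldehyde and combined with mouse NIH3T3 fibroblasts at 10%. The values come from the authors' deposited list of 9818 peaks (hg38), which gives the authors' own fold enrichment over control and −log10 q-value at each summit but no value per library, so no fold here has a replicate error or a test and the depth is unknown.

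Nearly all mitochondrial proteins are encoded in the nucleus, made in the cytosol and imported. The TOM complex is the entry gate of the outer membrane. From it, barrel proteins pass to the SAM complex, carrier proteins travel with small TIM chaperones to the TIM22 complex, and proteins with a cleavable presequence pass through TIM23 and are pulled in by a motor built around the chaperone encoded by HSPA9. In the matrix the presequence is removed and the protein folds with the help of the chaperonin encoded by HSPD1 and HSPE1. MYC is a transcription factor that binds DNA with its partner MAX, preferentially at E-boxes, and is known for raising cell growth and mitochondrial biogenesis.

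MYC peaks were present at most of these genes. Of the 44 genes, 38 (86.4%) had a summit inside or within 5000 bp, where 47.7% of all protein-coding genes did. The 38 genes held 41 distinct peaks, since HSPD1 and HSPE1 share 1 and PMPCB, GRPEL2 and TIMM17B have more than 1. Within 1000 bp of an end of the annotated gene a summit was present at 38 of the 44 (86.4%), against 37.6% of all protein-coding genes. Among genes with a peak the shares were 100% and 78.9%. The 6 genes without a peak were TOMM20L, TOMM40L, TIMM22, TIMM23, TIMM23B and PAM16.

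Taking for each gene its strongest peak by −log10 q, the fold ranged from 4.82 to 33.8 with a median of 10.5 (quartiles 7.75 and 14.3). Over the 9520 protein-coding genes with a peak the median was 8.56 (quartiles 6.07 and 13.0). The median −log10 q was 103 in the group and 57.7 over those genes. A peak from the stronger 50% of the list (−log10 q of 47.8 or more) was present at 30 of the 44 genes (68.2%), beside 27.7% of all protein-coding genes. TIMM50 (47.9) lay just inside that limit and GRPEL1 (47.7) just outside it. The highest fold of the whole list was 118.8.

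**Figure D1:**
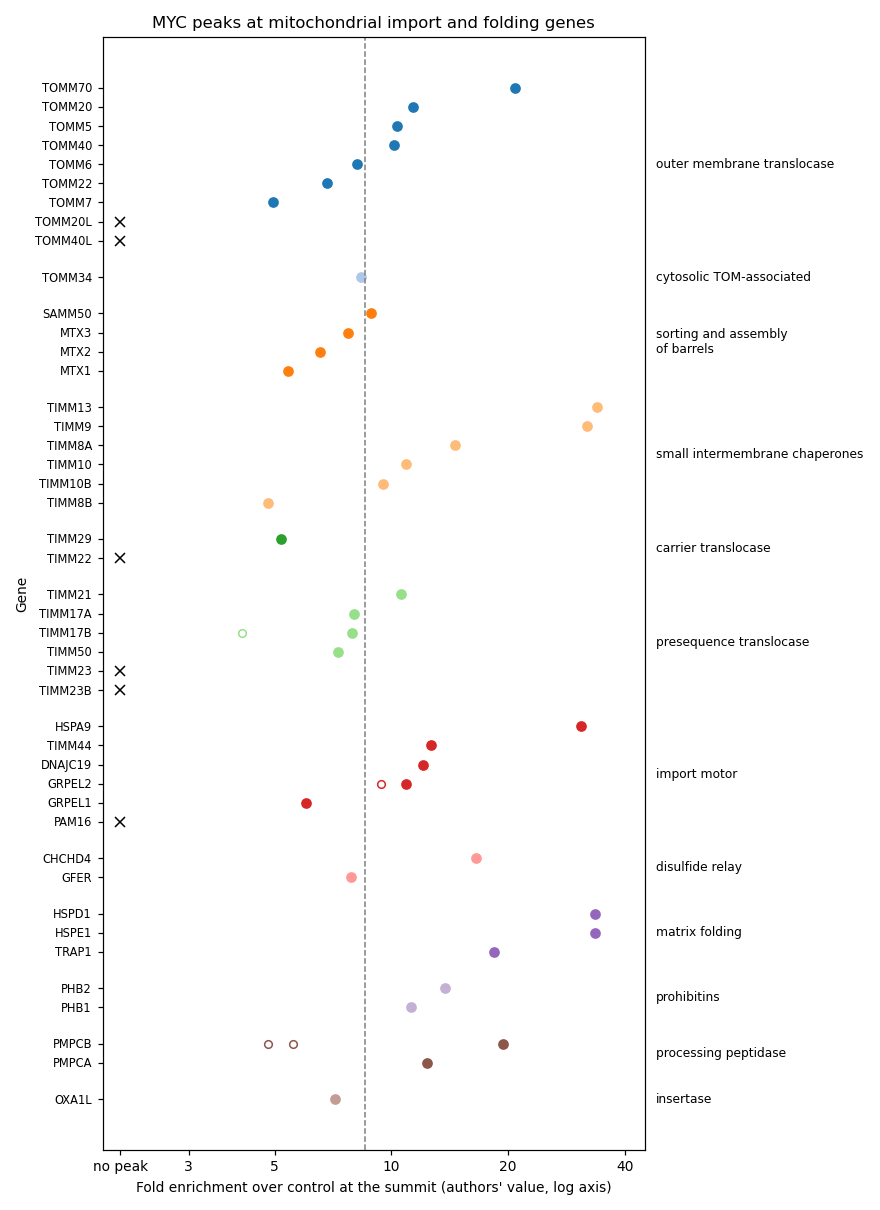
Fold enrichment over control of the MYC peaks of each gene, on a log axis, with genes grouped by role. Filled points are the strongest peak by −log10 q, open points further peaks of the same gene, crosses genes without a peak, and the dashed line the median of 8.56 over all protein-coding genes with a peak. TIMM13, HSPD1, HSPE1, TIMM9 and HSPA9 lie above 30, and 6 genes have no peak.

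Among subunits of the outer membrane translocase, 7 of 9 genes had a peak, with a median fold of 10.1. TOMM70, a receptor that docks chaperone-bound carrier precursors, had the highest at 20.8 (−log10 q 268, chromosome 3, 100400778 to 100402023). Its summit also lay 317 bp from the start of LNP1, a gene on the opposite strand. TOMM20, the presequence receptor, reached 11.4 (−log10 q 129) and TOMM40, the channel itself, 10.1 (83.4). The receptor gene TOMM22 was lower, with a fold of 6.84 (−log10 q 85.6). Of the small subunits that stabilise the channel, TOMM5 had a fold of 10.4 (169), TOMM6 8.15 (91.5) and TOMM7 4.94 (23.9). Subunits of this 1 complex thus ranged from 4.94 to 20.8. TOMM34, a cytosolic cochaperone of import, had a fold of 8.33 (−log10 q 108).

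Neither paralog of the core subunits in this complex had a peak. For TOMM40L the nearest summit lay 23616 bp from the gene. For TOMM20L, on chromosome 14, it lay 10087 bp away and was the peak of TIMM9, whose span overlaps that of TOMM20L by 8587 bp. That is the shortest distance among the genes without a peak, and the longest among the 38 with one was the 517 bp of TOMM40. No gene of the group thus fell between those distances, on either side of the 5000 bp limit.

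Genes for the sorting and assembly of barrel proteins had a peak in 4 of 4 cases. SAMM50, the barrel-inserting core of the SAM complex, had a fold of 8.88 (−log10 q 111). The metaxin genes MTX3, MTX2 and MTX1 followed with 7.71 (42.0), 6.56 (46.9) and 5.42 (35.0). The median of 7.13 for these 4 genes lay below the 8.56 of all protein-coding genes with a peak.

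Small chaperones of the intermembrane space, which escort carrier precursors across this compartment, had both the highest and the lowest folds of the group. All 6 genes had a peak. TIMM13 had a fold of 33.8 (−log10 q 238, chromosome 19, 2426806 to 2428043) and TIMM9 32.0 (−log10 q 589, chromosome 14, 58426694 to 58428032). The TIMM9 peak has the highest −log10 q of the group, at rank 105 of 9818. TIMM10, which forms a hexamer with TIMM9, had a fold of 10.9 (103), and TIMM10B, the membrane-bound form, 9.53 (57.8). TIMM8A, the partner of TIMM13, had 14.6 (103), whereas its paralog TIMM8B had 4.82 (30.5), the lowest of the group. Both pairs of hexamer partners thus hold 1 gene with a fold above 30 and 1 well below it. The summit at TIMM9 lay 364 bp inside the gene and 233 bp from a start of KIAA0586, a centrosomal protein gene on the opposite strand. The promoter window of TIMM9 (250 bases before the start and 50 from it on, RefSeq, GRCh38.p14) does not reach the summit, where the sequence was not examined. It is shown because the peak of this gene is the strongest by −log10 q. Capitals in it and in the other windows printed mark matches to 4 motifs (the E-box CACGTG, its variant CACGCG, the NRF1-type core GCATGCGC and the ETS-type core CCGGAAG, on either strand), here 1 NRF1-type core and no E-box.
TIMM9, chr14:58427482-58427781, minus strand: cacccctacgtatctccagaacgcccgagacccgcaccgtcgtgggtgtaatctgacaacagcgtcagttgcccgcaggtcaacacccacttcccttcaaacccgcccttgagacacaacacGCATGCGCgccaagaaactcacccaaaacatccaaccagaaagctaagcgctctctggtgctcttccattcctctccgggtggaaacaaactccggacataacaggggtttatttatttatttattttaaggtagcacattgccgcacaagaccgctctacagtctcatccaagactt

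The inner membrane translocases held 3 of the 6 genes without a peak. In the carrier translocase, TIMM29 had a fold of 5.20 (−log10 q 18.5, the lowest of the group) and TIMM22, the channel subunit, no summit nearer than 45133 bp. Of 6 presequence translocase genes 4 had a peak, and 3 of these lay below the 8.56 of all protein-coding genes with a peak. TIMM21, which links the complex to TOM and to the respiratory chain, had a fold of 10.6 (95.4). The paired channel subunit genes TIMM17A and TIMM17B had 8.02 (84.6) and 7.89 (35.6), and the receptor gene TIMM50 had 7.29 (47.9). TIMM17B held a further peak of fold 4.12 with its summit 1631 bp beyond the end of the gene, with no listed gene start within 1000 bp.

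TIMM23, the channel subunit of the presequence translocase, and its near copy TIMM23B, both on chromosome 10, were without a peak. The nearest summits lay 19588 bp from TIMM23 and 402871 bp from TIMM23B. Their promoter windows were identical at 289 of 306 aligned positions (94.4%), with 5 mismatches, 12 gap positions and an unbroken identical run of 101 bases. Reads that fit both copies can be dropped or split by an aligner. How they were treated is not given in the sources used here, and its part in the missing peaks was not tested. The pair of windows is shown to let their likeness be seen, with ETS-type cores in capitals.
TIMM23, chr10:45972239-45972538, plus strand: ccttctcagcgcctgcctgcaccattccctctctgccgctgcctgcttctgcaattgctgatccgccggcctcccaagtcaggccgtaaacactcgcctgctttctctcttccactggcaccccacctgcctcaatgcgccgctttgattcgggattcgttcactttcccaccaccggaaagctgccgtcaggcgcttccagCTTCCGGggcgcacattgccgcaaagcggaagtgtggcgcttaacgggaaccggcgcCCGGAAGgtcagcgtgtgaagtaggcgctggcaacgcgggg
TIMM23B, chr10:49941803-49942102, plus strand: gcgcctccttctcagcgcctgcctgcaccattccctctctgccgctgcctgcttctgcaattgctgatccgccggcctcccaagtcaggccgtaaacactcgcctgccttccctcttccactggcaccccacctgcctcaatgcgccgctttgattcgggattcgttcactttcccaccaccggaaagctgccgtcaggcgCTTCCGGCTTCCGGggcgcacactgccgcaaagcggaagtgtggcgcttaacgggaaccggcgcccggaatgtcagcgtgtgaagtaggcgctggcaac

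In the import motor, 5 of 6 genes had a peak, at a median fold of 12.1. HSPA9, the ATP-driven chaperone of the motor, stood at 30.9 (−log10 q 275, chromosome 5, 138574838 to 138576248). TIMM44, which tethers this chaperone to the channel, had a fold of 12.6 (109). DNAJC19, a J-domain cochaperone, had 12.1 (92.6). The nucleotide exchange factor genes GRPEL2 and GRPEL1 had 10.9 (124) and 6.02 (47.7). A second peak counted for GRPEL2, with a fold of 9.40, had its summit 25 bp from the start of PCYOX1L, a neighbouring gene. PAM16, the partner that restrains the J-domain protein, had no summit nearer than 41012 bp. Its promoter window is shown because it holds 2 matches to an E-box variant and 1 NRF1-type core, in capitals, without a peak in the list.
PAM16, chr16:4351272-4351571, minus strand: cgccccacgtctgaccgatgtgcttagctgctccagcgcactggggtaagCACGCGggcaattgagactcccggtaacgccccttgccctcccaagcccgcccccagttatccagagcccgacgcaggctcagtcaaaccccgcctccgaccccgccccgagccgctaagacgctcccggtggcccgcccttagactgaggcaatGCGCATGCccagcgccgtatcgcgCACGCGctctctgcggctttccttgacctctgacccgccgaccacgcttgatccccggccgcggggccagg

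Matrix folding genes had the highest median fold of any role, 33.5 over 3 genes that hold 2 distinct peaks. HSPD1 and HSPE1, which encode the chaperonin and its lid, start 105 bp apart on opposite strands and share 1 peak, whose fold was 33.5 (−log10 q 565, chromosome 2, 197499079 to 197500858). At 1780 bp it was the widest of the group and covers both starts. The summit lay 314 bp inside HSPD1 from its outermost start, 120 bp upstream of a second listed start of HSPD1, and 419 bp upstream of HSPE1. This is 1 measurement that stands for both genes, and with it counted once the median of the matrix folding genes was 25.9. TRAP1, an ATP-dependent matrix chaperone, had a fold of 18.4 (272, chromosome 16, 3716883 to 3717948). The HSPE1 window is shown as the shared promoter of the pair. It overlaps that of HSPD1 by 204 bases, does not reach the summit and has its E-box in capitals.
HSPE1, chr2:197500129-197500428, plus strand: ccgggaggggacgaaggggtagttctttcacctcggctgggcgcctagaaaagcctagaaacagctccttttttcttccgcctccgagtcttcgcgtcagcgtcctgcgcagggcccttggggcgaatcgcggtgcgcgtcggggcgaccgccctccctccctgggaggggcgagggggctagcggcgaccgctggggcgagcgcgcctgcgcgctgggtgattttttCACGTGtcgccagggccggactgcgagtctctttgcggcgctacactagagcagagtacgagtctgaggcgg

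CHCHD4 and GFER form the disulfide relay that traps small cysteine-rich proteins between the membranes. CHCHD4, the oxidoreductase, had a fold of 16.5 (191) and GFER, the sulfhydryl oxidase that recharges it, 7.88 (59.2). The prohibitin genes PHB2 and PHB1, whose products form a ring-shaped scaffold in the inner membrane, had 13.7 (166) and 11.2 (112). OXA1L, which inserts proteins into the inner membrane from the matrix side, had 7.16 (52.1).

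The processing peptidase, which removes presequences, shows how a long gene can take in a neighbour's peak. PMPCA, its noncatalytic subunit, had a fold of 12.3 (−log10 q 121) with the summit 65 bp upstream of its start and 21 bp from that of ENTR1. PMPCB, the catalytic subunit, held 3 peaks. The strongest, with a fold of 19.4 (294), lay 47412 bp inside PMPCB but 80 bp from the start of DNAJC2, a ribosome-associated J-domain protein gene on the opposite strand. Another, with a fold of 4.80, lay 34 bp from the start of PSMC2, a proteasome ATPase gene. The peak at the PMPCB start itself, 3 bp upstream, had a fold of 5.57 (62.5).

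Some paralogs had unlike values. The folds were 11.4 and none for TOMM20 and TOMM20L, 10.1 and none for TOMM40 and TOMM40L, and 14.6 and 4.82 for TIMM8A and TIMM8B. Exchange factors GRPEL2 and GRPEL1 had 10.9 and 6.02. TIMM17A and TIMM17B (8.02 and 7.89) and PHB2 and PHB1 (13.7 and 11.2) lay close together. Without replicate values, no pair can be said to differ beyond experimental error.

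**Figure D2:**
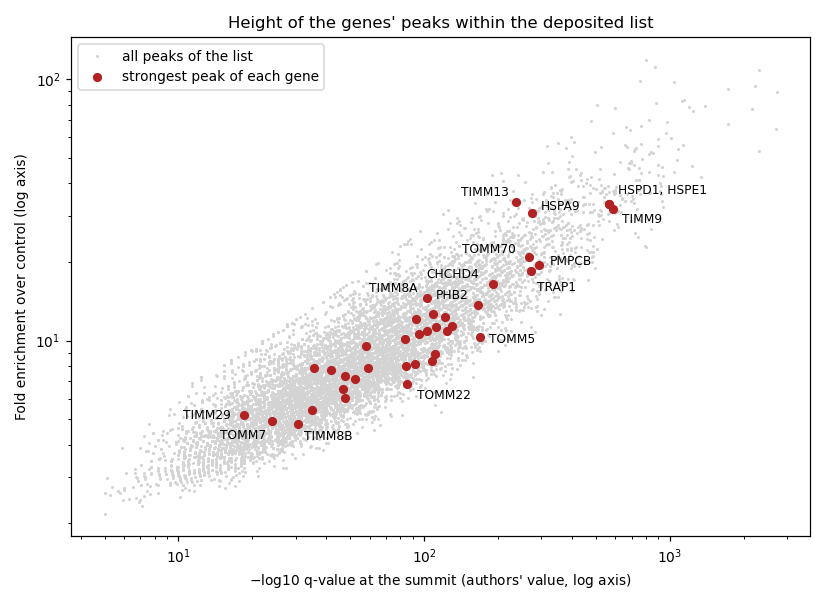
Fold enrichment against −log10 q, both on log axes, for all 9818 peaks (grey) and for the strongest peak of each gene of the group (red). The points run from TIMM29 and TOMM7 at the lower end to HSPD1, HSPE1 and TIMM9 at the upper, inside the cloud of all peaks.

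In the ranking by −log10 q, 7 of the 38 genes with a peak (18.4%) had it among the highest 5% of the list, as did 6.96% of all protein-coding genes with a peak. The 7 were TIMM9, HSPD1, HSPE1, PMPCB through the DNAJC2 peak, HSPA9, TRAP1 and TOMM70, which hold 6 distinct peaks. The peaks of TIMM9 and TOMM70 also lie near starts of KIAA0586 and LNP1. A fold of 20 or more was found in 6 genes with 5 distinct peaks (15.8% of genes), against 9.25% of protein-coding genes with a peak. By role, 3 of those 6 genes encode chaperones of the matrix, counting HSPA9, 2 encode small TIM chaperones and 1 a receptor. The lowest folds, under 6, belonged to TOMM7, MTX1, TIMM29 and TIMM8B.

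The summits sat close to starts of transcription. A start was listed for 41 of the 44 genes, all but TOMM5, TIMM8B and GRPEL1, and 35 of the 41 (85.4%) had a summit within 1000 bp of it, against 41.5% of the 15812 protein-coding genes with a listed start. The median distance was 85 bp, beside 129 bp over all protein-coding genes with such a peak. Of the 35 genes, 21 (60%) had the summit within 100 bp, where 43.1% of all did. At 23 genes (65.7%, beside 58.5% of all) the summit lay upstream of the nearest listed start and at 11 downstream of it. That of TIMM10B fell on the start base itself. HSPD1 and HSPE1 share 1 summit, counted here for each gene. From the outermost start, the summits of HSPD1 and PHB2 lay 314 and 68 bp inside the gene.

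**Figure D3:**
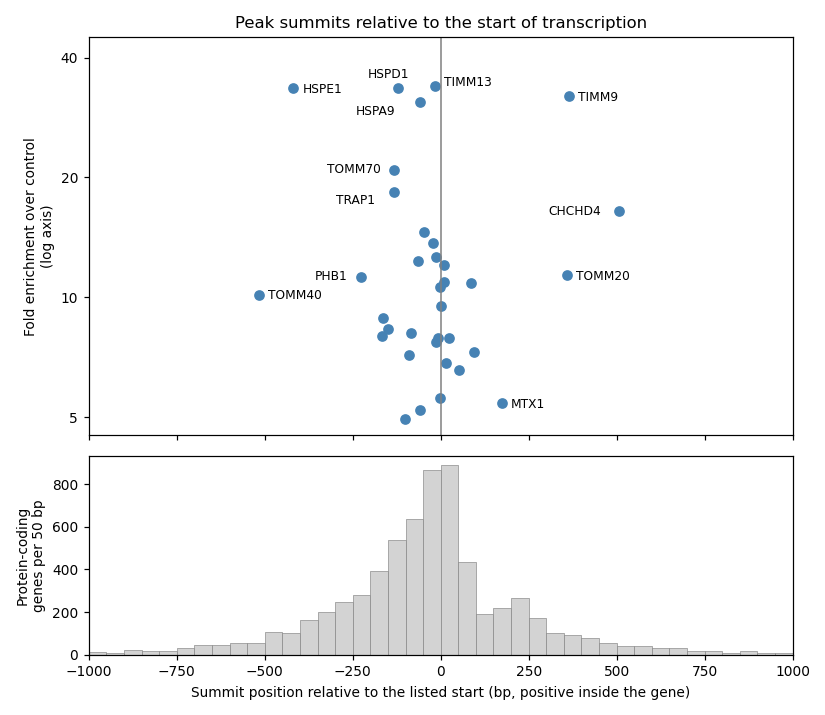
Upper panel, fold enrichment (log axis) against the position of the summit relative to the nearest listed start, for the 35 genes with a peak there. Lower panel, the same positions for all protein-coding genes, as genes per 50 bp. Most points lie within 250 bp, and TOMM40 at −517 bp and CHCHD4 at 507 bp are the farthest.

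A few genes departed from this position. The summits of CHCHD4, TIMM9 and TOMM20 lay 507, 364 and 358 bp inside the gene. Those of TOMM40 and HSPE1 lay 517 and 419 bp upstream. Altogether 30 of the 35 genes (85.7%) had the summit within 250 bp of a start, against 71.8% of all protein-coding genes with a start peak.

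Many of these promoters are shared with a neighbour. At 16 of the 35 genes (45.7%) another gene also started within 1000 bp of the summit, near the 41.4% of all protein-coding genes with a start peak. Within this limit such a summit counts for each gene, and to which of them it belongs was not tested. The distances can be unlike, as at TIMM21, where the summit lay 2 bp from its start and 687 bp from that of FBXO15. For the mitochondrial genes these neighbours included LNP1 at TOMM70, TMEM43 at CHCHD4, EMG1, a ribosome biogenesis factor, at PHB2 and ENTR1 at PMPCA. Others were PQBP1 at TIMM17B, ARFIP2 at TIMM10B and YIPF2 at TIMM29. Thrombospondin genes lay beside both MTX1 (THBS3) and MTX3 (THBS4). At TIMM8B, which has no listed start, the summit lay 108 bp from the start of SDHD, a subunit of succinate dehydrogenase. At OXA1L, TOMM22 and TOMM7 the neighbour was a long noncoding gene on the opposite strand.

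E-boxes were present at some of the promoters. The canonical E-box CACGTG was found in 7 of the 41 windows (17.1%), beside 8.82% of all 15812 protein-coding windows. Among genes with a peak at the start, 7 of 35 held it (20%), beside 12.3% of all such windows. Since HSPD1 and HSPE1 share 1 E-box, the 7 genes hold 6 distinct sites. All 7 had a peak at the start, with a median fold of 14.6, and the other 28 genes with a start peak had a median of 9.21 there. Counting the shared peak of HSPD1 and HSPE1 once, the first median was 13.0 over 6 peaks. Over all protein-coding genes with a start peak the medians were 10.4 with the E-box and 8.22 without. The 46 bases around each site (42 at TIMM8A, where the window ends) are given so that their flanks can be compared, with the E-box in capitals and each written along the gene. They were chosen after the values were seen.
HSPE1, chr2:197500337-197500382, plus strand: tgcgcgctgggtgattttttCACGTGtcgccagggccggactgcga
HSPA9, chr5:138575395-138575440, minus strand: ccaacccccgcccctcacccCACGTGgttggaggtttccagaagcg
TIMM8A, chrX:101348693-101348734, minus strand: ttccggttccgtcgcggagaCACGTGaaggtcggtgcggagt
TOMM20, chr1:235128980-235129025, minus strand: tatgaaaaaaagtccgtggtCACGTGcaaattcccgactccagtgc
TIMM10, chr11:57530730-57530775, minus strand: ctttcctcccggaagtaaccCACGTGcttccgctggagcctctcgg
MTX3, chr5:79991273-79991318, minus strand: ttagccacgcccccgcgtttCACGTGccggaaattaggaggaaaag

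These sites differed in their distance from the summit. It was 8 bp at TIMM10, 21 bp at MTX3, 42 bp at HSPA9 and 79 bp at TIMM8A. At HSPE1 and TOMM20 the E-box lay 399 and 523 bp from the summit. Within 100 bp were thus 4 of the 7 (57.1%), beside 59.6% of all start-peak windows with an E-box. A match is a description of the sequence and was not tested as a binding site. Matches were sought only in the promoter windows, and sequence outside them was not searched. Some summits lay outside, among them those of CHCHD4, TOMM40, TIMM9, TOMM20, HSPD1 and HSPE1. A closer match there would be missed, and the shares within 100 bp carry the same limit, for all genes too.

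**Figure D4:**
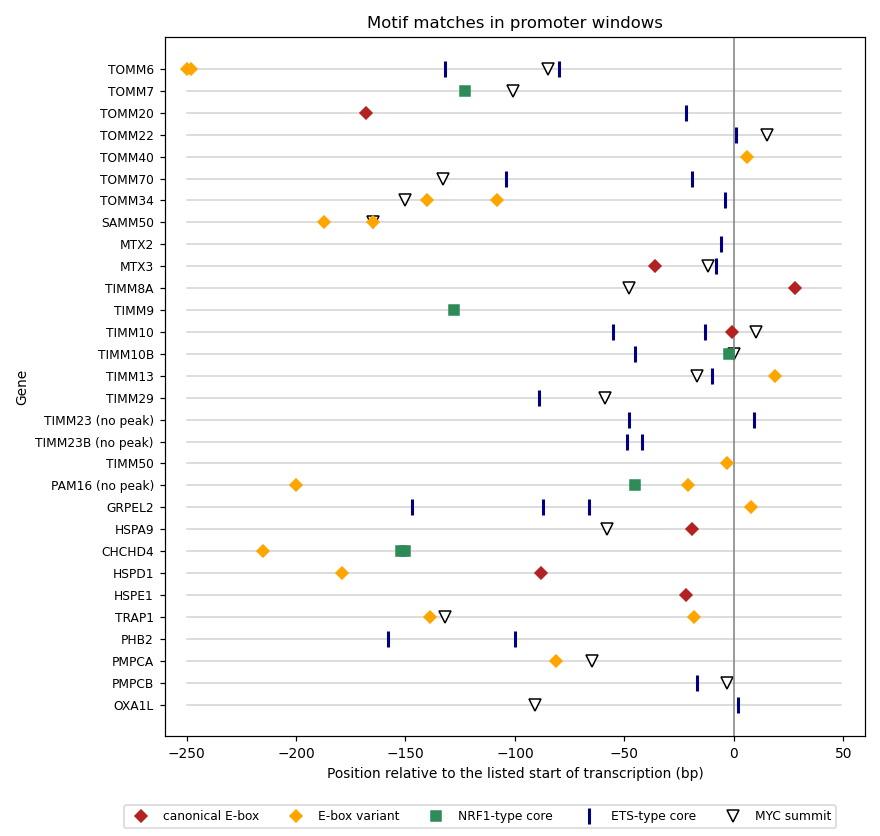
Positions of motif matches (first base) in the promoter windows, from 250 bases before the listed start to 50 from it on, for the 30 genes with any match, with the MYC summit as an open triangle where it falls in the window. The canonical E-box lies within 40 bp of the start at HSPA9, HSPE1, MTX3, TIMM8A and TIMM10, and ETS-type cores are the most frequent matches.

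Of the other motifs the E-box variant CACGCG was in 12 of the 41 windows (29.3%, 14.8% of all). Among the 35 genes with a start peak, 11 held it (31.4%, beside 20.9% of all windows with a start peak). The distance from the summit to the nearest match in the window ranged from 2 bp at SAMM50 to 719 bp at CHCHD4. It was within 100 bp at 7 of the 11 (63.6%), beside 49.9% of all start-peak windows with the variant. Either E-box form was in 17 of these 35 windows (48.6%, against 30.5%). The core of the site of NRF1, a regulator of nuclear genes for mitochondria, was searched as GCATGCGC and found in 5 windows (12.2%, 4.28% of all), those of CHCHD4, PAM16, TIMM10B, TIMM9 and TOMM7. Among genes with a start peak 4 held it (11.4%, beside 6.45%), at 1 bp from the summit at TIMM10B, 18 bp at TOMM7, 488 bp at TIMM9 and 653 bp at CHCHD4. The ETS-type core CCGGAAG was in 17 windows (41.5%, 14.1% of all) and in 15 of the 35 with a start peak (42.9%, beside 24.3%). Within 100 bp of the summit it lay in 11 of the 15 (73.3%), beside 54.8% of all start-peak windows with this core. No matches to different motifs overlapped, and 8 genes with a start peak held none of the 4: DNAJC19, GFER, MTX1, PHB1, TIMM17A, TIMM17B, TIMM21 and TIMM44. Of the genes without a peak, TIMM22, TOMM20L and TOMM40L, whose windows are not printed, also held none. The share of all start-peak windows with none of the 4 was not counted. At DNAJC19 and MTX1 the summit lay outside the window searched.

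The median number of CpG in the window was 26 for the 35 genes with a start peak (range 9 to 51) and 26 for the 6 without (range 10 to 34). Over all protein-coding genes it was 27 with a start peak and 13 without. Both medians of the group thus lay near that of protein-coding genes with a start peak. The part of CpG content in the counts above was not tested.

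A list of further import, quality control and cristae genes, written for this comparison, had peaks at a like share of genes. Of 34 further genes, 30 (88.2%) had a peak, with a median fold of 11.3. All 9 genes listed here under quality control, not all of which encode proteases, had one. The folds were 34.1 at LONP1, the matrix protease that degrades misfolded proteins, 21.7 at SPG7 and 13.5 at AFG3L2. The SPG7 value is that of a summit 52157 bp from its listed start, beyond the other end of the gene. Among genes listed here as import accessory, 9 of 11 had a peak. They were led by −log10 q by DNLZ, an escort of the HSPA9 chaperone (fold 14.2), TIMMDC1 (21.7) and COX18 (11.1). DNAJC15 and DNAJA3, which encode J-domain cochaperones, had none, whereas DNAJC19 did. Peptidases that act after import had a peak in 6 of 7 cases, with PARL at a fold of 17.0, IMMP2L at 21.1 and XPNPEP3 at 8.85, and not at MIPEP. In the cristae organising system 6 of 7 had one, with IMMT, its core subunit, at a fold of 24.1, MICOS10 at 7.63 and CHCHD6 at 7.48, and not at APOOL.

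Beside other lists, the share of genes with a peak was near that of mitochondrial ribosomal proteins (65 of 77, 84.4%, median fold 10.1) and above that of respiratory complex I subunits (28 of 36, 77.8%, median fold 8.75). In the stronger 50% of peaks those lists had 53 and 15 genes (68.8% and 41.7%), against 68.2% for the import and folding genes. All 8 genes of the cytosolic chaperonin, which folds proteins outside mitochondria, had a peak, at a median fold of 24.4. The quartiles of those 8 genes were 16.2 and 33.7. The 1 peak shared by HSPD1 and HSPE1, the mitochondrial chaperonin, lay above that median and within these quartiles with 33.5. No test of these differences was made, since genes are not replicates and the list has no value per library.

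**Figure D5:**
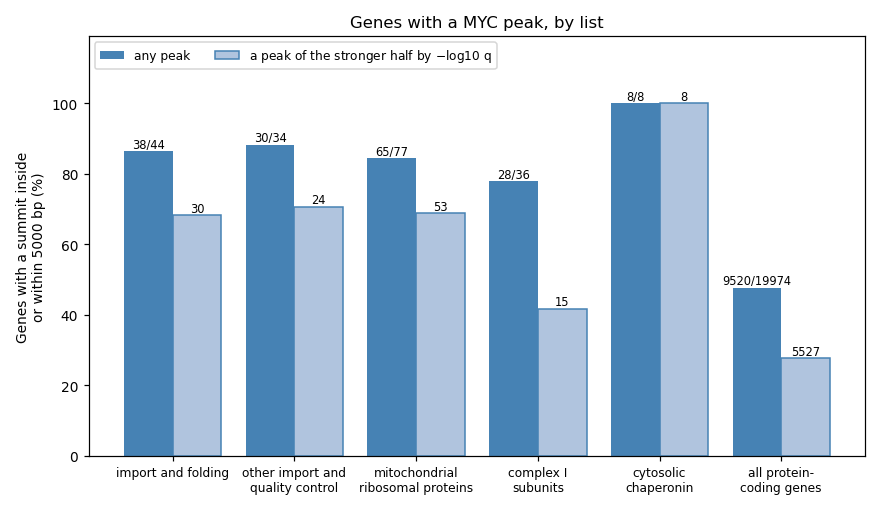
Percentage of genes with a MYC summit inside or within 5000 bp, for any peak and for the stronger 50% of peaks, in the import and folding genes, 4 comparison lists and all protein-coding genes. Numbers above the bars are genes with a peak, over the genes in the list for the first bar. Import and folding genes stand at 86.4% and 68.2%, all protein-coding genes at 47.7% and 27.7%.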

How the data were processed

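The 2 MYC immunoprecipitation libraries and 1 input of U2OS cells are represented by 1 deposited peak list. Per the submitters' processing notes, the tools were MACS2, Picard, SAMtools, Bowtie2 and cutadapt, with hg38, hg19 and mm10 as builds. Pooling of libraries, settings and the use made of mouse reads: not given in the sources used here. The deposited list holds a fold enrichment (ratio) of IP over control, a −log10 p-value and a −log10 q-value per summit, and a deposited score that is 10 times the −log10 q without decimals in 99.8% of peaks. The −log10 p and the score were not used further.

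Gene spans and promoter windows came from RefSeq (GRCh38.p14), whose chromosome coordinates are those of hg38. Exon and intron positions were not analysed here. Summits were assigned to genes within 5000 bp, or to ends and listed starts within 1000 bp, and a gene took its strongest peak by −log10 q. Where several starts were listed, distances refer to the nearest and promoter windows to the outermost. Assignment was checked on made-up genes and peaks. TIMM23 windows were aligned globally with Biopython 1.88. No test over genes was run, since the list has no replicate values and genes are not replicates. The group, lists and motifs were chosen with earlier results of these data known. All genes of the group are named. Of other pathway genes, the 3 strongest of each role and those without a peak are named, and promoter windows are printed for the genes with the 3 highest −log10 q (HSPE1 standing for HSPD1, whose window overlaps it) and for 3 genes without a peak.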

Additional observations from a re-analysis of the deposited data

How the results depend on the processing

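With gene windows of 1000 and 10000 bp, overlap by any base instead of the summit, or a −log10 q of at least 10, 38 of the 44 genes and 30 of the 34 further pathway genes had a peak. In the stronger 50% of peaks the counts were 30 and 24. The count of all protein-coding genes with a peak, 9520 as reported, moved most there, to 5527. The median fold of the group lay between 10.4 and 11.3 in all settings, including the peak at the listed start in place of the strongest (10.6 over 35 genes), which was added after the data were seen. Genes with a summit at an end numbered 38, 36 with 500 bp, 38 with 2000 bp, 35 with listed starts alone and 30 in the stronger 50% of peaks. Distinct peaks numbered 39 and 44 with windows of 1000 and 10000 bp. No paired analysis was possible because the list has no value per library, and for the same reason no library could be left out. A gene without a peak is one without an entry in this list, at a depth that is unknown.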
